A study of Mus musculus with 2 samples.

Results

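The 10 genes of the core circadian clock loop, Arntl, Clock, Npas2, Per1, Per2, Per3, Cry1, Cry2, Nr1d1 and Nr1d2, were followed in the lungs of mice with and without an endothelial Cre acting on floxed Foxf1. They were taken by symbol from both deposited tables, and all 10 were found among 22072 gene symbols. Control mice were Foxf1 fl/fl without Cre. Knockout mice were Foxf1 fl/fl with Pdgfb-iCreER, a Cre recombinase named for Pdgfb that is active in endothelial cells and needs tamoxifen. Without a group that has Cre alone, an effect of Cre and one of Foxf1 loss cannot be told apart. All mice were of the strain labelled C57/BL6, and RNA from the dissected lungs of several mice was combined, so each genotype was 1 library. The hour at which lungs were collected, the tamoxifen schedule, and the number, age and sex of the pooled mice are details not given in the labels. Expression of clock genes depends on the time of day, so genotype and hour of collection cannot be told apart if the hours differed.

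The mammalian clock is a feedback loop of transcription that runs in nearly every cell, including those of lung. BMAL1 (gene Arntl) pairs with CLOCK or NPAS2 and activates genes through E-box sequences, among them the Per, Cry and Nr1d genes. PER and CRY proteins return to block that activation, while REV-ERBα (Nr1d1) and REV-ERBβ (Nr1d2) bind RRE sequences and repress Arntl. As a result Arntl and the Per and Nr1d genes are known to peak at opposite times of day.

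The activator Arntl was higher in knockout lungs and most of the repressor genes were lower. Of the 10 genes, 9 had a mean level of 1 FPKM or more (fragments corrected for transcript length and library size). Counted at 1.5-fold after log2(FPKM + 1) transformation, 1 of these 9 was higher, Arntl. That share (11.1%) was near the 9.41% of all 12929 genes over that level. In the same way 5 of the 9 were lower, Per2, Per3, Cry2, Nr1d1 and Nr1d2, against 4.63% of all genes. With the 100 most abundant genes left out of the library totals, the shares of all genes were 7.58% higher and 6.1% lower. The members called were then 1 and 6, Per1 passing the mark on a control level that carried the deposited status FAIL. At a fold of 2, Arntl was higher (3.75% of all genes were) and Per2, Per3 and Nr1d2 were lower (1.25% of all genes were). With plain FPKM ratios at 1.5-fold the members called were again 1 and 5, against 12.2% and 6.94% of all genes. The median log2(FPKM + 1) difference was -0.83 for the 9 clock genes and 0.05 for all genes. With 1 library per genotype there is no replicate check and no p-value. Intervals after folds are 95% counting intervals from approximate reads, which leave out differences between mice and between library preparations.

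**Figure D1:**
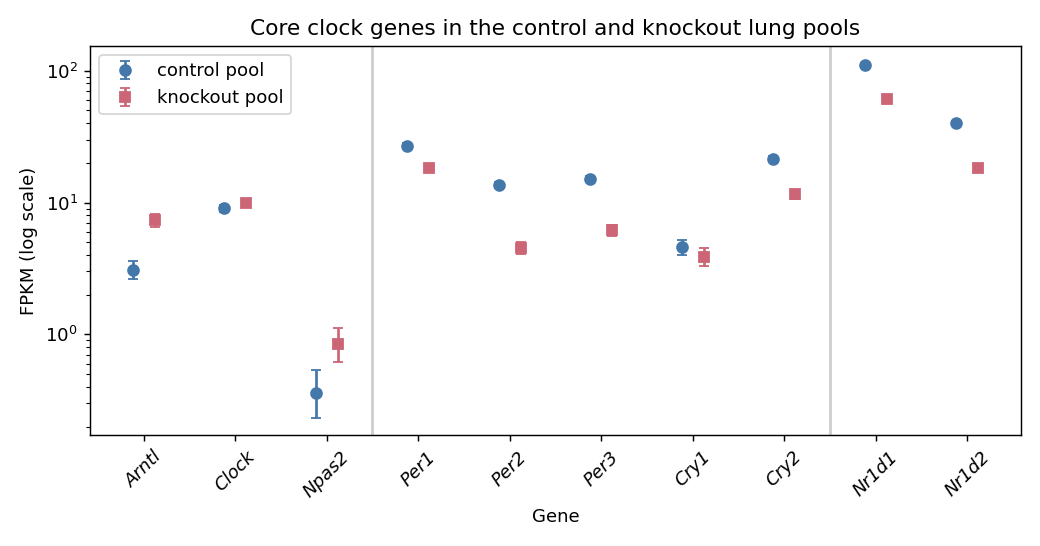
FPKM (log axis) of the 10 core clock genes in control lungs (blue circles) and knockout lungs (red squares), grouped as activators, PER and CRY genes, and REV-ERB genes. Bars are 95% Poisson intervals of the approximate reads of 1 library. Arntl had 3.10 FPKM in control and 7.34 in knockout lungs, while all PER, CRY and REV-ERB genes had a lower value in knockout lungs.

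Foxf1, listed as Foxf1a, checked the labels: it had 72.1 FPKM in control and 15.7 in knockout lungs. The libraries held about 13.5 M (control) and 10.6 M (knockout) reads on transcripts. The surfactant gene Sftpc, which defines alveolar type 2 cells of lung, had 15925 FPKM in control and 13793 in knockout lungs.

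Promoters of the loop genes are shown as background, since E-box and RRE sequences belong to the textbook account of the loop. The part of any promoter sequence in the differences between the pools was not tested. RefSeq start sites (build GRCm38.p6) gave 13 windows for 9 of the 10 genes, each of 300 bases with 250 before the start site. Per2 had no entry. The motifs searched on both strands were the E-box CACGTG, the E'-box CACGTT, the D-box (TTATGTAA, TTATGCAA or TTACGTAA, bound by DBP, TEF, HLF and NFIL3), the RRE ANTNGGTCA, and the cAMP response element TGACGTCA. Below, lower case is the 250 bases before the start site, read 5′ to 3′ on the gene's strand, and capitals mark a matched motif. The exceptions are short stretches around an RRE, covering positions 19 to 47 of Arntl and -22 to 7 of Nfil3, counted from 1 at the start site and from -1 before it. The motif spellings and the lines shown were chosen after the windows were seen.
Arntl, chr7:113207529-113207557, plus strand: gaaggcagaaAGTAGGTCAgggacggagg
Nfil3, chr13:52981033-52981061, minus strand: cgctcggaacTGACCTACTaacacacatc
Per1, chr11:69098699-69098948, plus strand: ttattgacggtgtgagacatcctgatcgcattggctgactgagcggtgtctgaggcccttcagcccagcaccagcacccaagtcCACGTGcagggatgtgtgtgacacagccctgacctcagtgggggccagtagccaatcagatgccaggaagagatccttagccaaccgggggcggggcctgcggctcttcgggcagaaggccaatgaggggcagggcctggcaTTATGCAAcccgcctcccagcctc
Per3, chr4:151044666-151044915, minus strand: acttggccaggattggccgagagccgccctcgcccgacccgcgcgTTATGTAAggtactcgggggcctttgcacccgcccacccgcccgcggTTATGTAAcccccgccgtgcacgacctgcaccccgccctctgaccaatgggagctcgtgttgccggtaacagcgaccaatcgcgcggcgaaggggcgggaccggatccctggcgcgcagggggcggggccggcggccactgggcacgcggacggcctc
Cry1, chr10:85185055-85185304, minus strand: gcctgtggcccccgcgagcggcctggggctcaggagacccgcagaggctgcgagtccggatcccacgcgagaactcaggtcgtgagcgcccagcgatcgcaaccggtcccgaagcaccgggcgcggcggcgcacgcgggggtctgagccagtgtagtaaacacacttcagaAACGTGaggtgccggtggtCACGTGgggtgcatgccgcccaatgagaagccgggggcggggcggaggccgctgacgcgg
Nr1d1, chr11:98775378-98775627, minus strand: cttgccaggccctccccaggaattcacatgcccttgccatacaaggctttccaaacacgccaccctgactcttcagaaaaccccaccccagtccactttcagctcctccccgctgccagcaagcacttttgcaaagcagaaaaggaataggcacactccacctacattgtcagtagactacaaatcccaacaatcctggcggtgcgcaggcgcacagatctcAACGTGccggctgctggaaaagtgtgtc
Ciart, chr3:95882229-95882478, minus strand: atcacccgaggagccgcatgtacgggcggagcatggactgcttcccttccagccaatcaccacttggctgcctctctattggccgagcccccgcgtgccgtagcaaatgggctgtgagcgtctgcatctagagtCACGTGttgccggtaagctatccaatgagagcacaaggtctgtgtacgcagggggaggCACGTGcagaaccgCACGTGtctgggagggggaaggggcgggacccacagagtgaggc

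The Arntl stretch, from the window of the more downstream of its 2 RefSeq starts, holds an RRE, AGTAGGTCA, at positions 29 to 37. The other Arntl window holds none of the motifs searched. Nfil3, an output gene described further on, holds an RRE on the other strand at -12 to -4. Of all 32851 promoter windows, 2.24% hold an RRE as spelled here. The Per1 window before the more upstream of its RefSeq starts holds an E-box at -166 to -161 and a D-box at -24 to -17. The Per3 window holds a D-box at -205 to -198 and another at -158 to -151. Cry1 has an E'-box at -79 to -74 beside an E-box at -60 to -55. Nr1d1 has an E'-box at -28 to -23. Cry2, not printed, has an E'-box at -166 to -161. Ciart, also an output gene, has 3 E-boxes between -116 and -39. Among all windows, 7.15% hold an E-box, 4.68% an E'-box, 1.78% a D-box and 1.79% a cAMP response element. Of the other output genes, Tef and Bhlhe41 hold an E-box and Hlf a cAMP response element, Dbp holds none, and Bhlhe40 had no entry. The stretch from 11 to 35 after the start was found in a GENCODE M21 transcript of the same gene for every window of these genes except those of Nr1d1, Cry2 and Hlf. For these 3 the RefSeq start lies 44, 26 and 22 bases upstream of the GENCODE gene on the same strand, so their positions hold for the RefSeq start alone. None of the matches named here overlap each other. The windows of Clock, Npas2 and Nr1d2 hold none of these letter strings, which says nothing of sites elsewhere.

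Among the activators, Arntl and its partners differed in how far apart the pools were. Arntl, on chromosome 7 from 120350979 to 120457636 (mm9, as are all gene positions that follow), encodes BMAL1, the subunit without which the loop does not run. It had 3.10 FPKM in control and 7.34 in knockout lungs, from about 151 and 277 reads. That is 2.37-fold higher (1.94 to 2.91), and 461 of the 12929 genes had a higher log2 difference. Clock, on chromosome 5 from 76641202 to 76733573, encodes the main partner of BMAL1. It had 9.03 and 9.98 FPKM, 1.11-fold higher in knockout lungs (1.01 to 1.20), and 59.5% of genes had a lower log2 difference, so it lay near the centre of all genes. Npas2, on chromosome 1 from 39251117 to 39420085, encodes a protein related to CLOCK that can take its place. It was the only member under 1 FPKM in both pools, at 0.361 in control and 0.844 in knockout lungs, from about 25.4 and 45.9 reads. Its ratio was 2.33-fold higher (1.40 to 3.96), an interval that overlapped that of Arntl and not that of Clock. Arntl2, a relative of Arntl outside the loop list, stood at 0.179 and 0.459 FPKM, too few reads for the interval of its ratio to leave equality.

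The Period genes were all lower in knockout lungs, by unequal amounts. Per2, on chromosome 1 from 93312559 to 93355905, encodes a repressor that carries CRY proteins into the nucleus. Its level was 13.6 FPKM in control and 4.55 in knockout lungs, from about 1333 and 345 reads. It was 2.98-fold lower (2.65 to 3.37), the largest fold among the 10 genes, and 77 of the 12929 genes had a lower log2 difference. Per3, on chromosome 4 from 150377764 to 150418731, is the Period gene least needed for the loop. It had 15.0 and 6.15 FPKM, 2.44-fold lower (2.20 to 2.71), and its interval overlapped that of Per2.

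Per1, on chromosome 11 from 68912458 to 68923459, also responds quickly to glucocorticoids and to cAMP signalling. It was the most abundant Period gene, at 26.9 FPKM in control and 18.4 in knockout lungs. It was 1.46-fold lower (1.36 to 1.57), short of the 1.5-fold mark, and its interval did not overlap those of Per2 and Per3. Both Per1 records of the control library carried the deposited status FAIL, which limits how far the control level of Per1 can be relied on. The shorter Per1 record held 0.370 FPKM in control and 0.00187 in knockout lungs, and nearly all Per1 signal was in the longer record.

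The Cryptochrome genes encode the stronger repressors of BMAL1 and CLOCK, and the pair differed. Cry2, on chromosome 2 from 92243804 to 92274226, had 21.2 FPKM in control and 11.5 in knockout lungs. It was 1.84-fold lower (1.67 to 2.03). Cry1, on chromosome 10 from 84594445 to 84647799, is known to peak later in the cycle than the Per genes and carries RRE sites as well as E-boxes. It had 4.57 and 3.88 FPKM from about 232 and 152 reads, 1.18-fold lower, with an interval that spanned equality (0.957 to 1.46). The intervals of Cry1 and Cry2 did not overlap. Within a library Cry2 was 4.65 times as abundant as Cry1 in control lungs and 2.98 times in knockout lungs.

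The REV-ERB genes were the most abundant of the loop in control lungs and both were lower in knockout lungs. Nr1d1, on chromosome 11 from 98629249 to 98636556, had 110 FPKM in control lungs (107 to 113) and 61.2 in knockout lungs (58.6 to 63.9). It was 1.80-fold lower (1.71 to 1.89). Nr1d2, on chromosome 14 from 19036570 to 19071620, had 39.9 and 18.3 FPKM, 2.18-fold lower (2.04 to 2.34). The intervals of their folds did not overlap, so Nr1d2 stood further from equality by more than counting error.

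Reads of 3 loop genes could partly come from other annotated genes. In GENCODE M21, 8.34% of the 47-base stretches of the Nr1d1 transcript lie antisense to Thra, a thyroid hormone receptor gene whose end overlaps it. Without strand such reads cannot be told apart. The Thra record in the tables does not reach Nr1d1 and stood at 29.8 and 25.3 FPKM. For Nr1d2, 6.63% of stretches are shared with another annotated gene, and for Cry2 2.85% lie antisense to other transcripts and 0.229% are shared in sense. The other 7 members shared none.

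**Figure D2:**
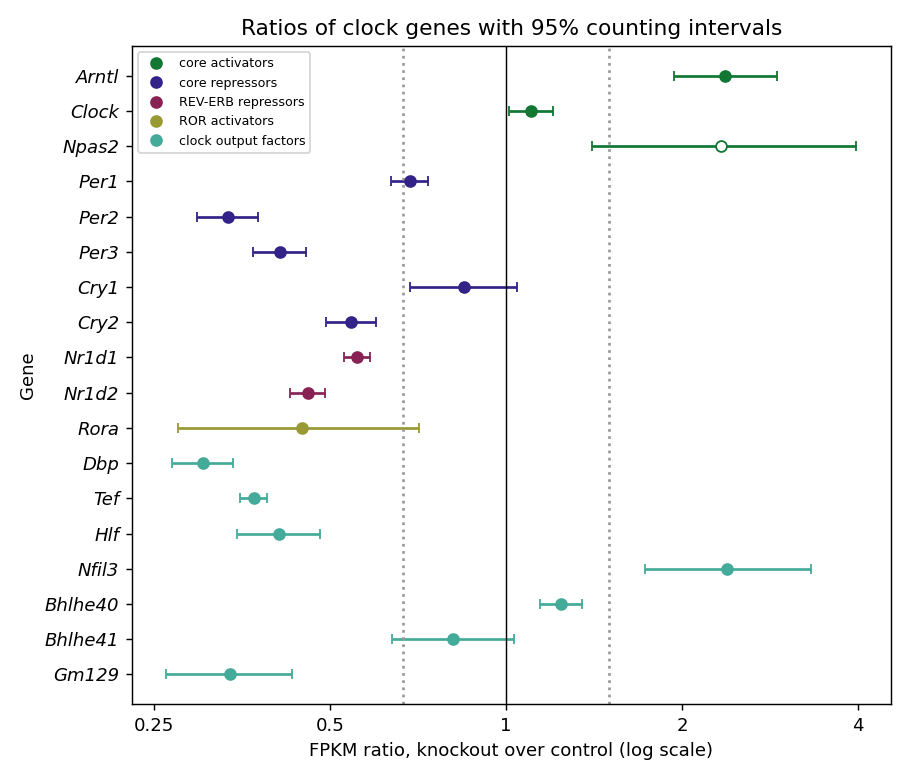
FPKM ratio of knockout over control lungs (log axis) for the core clock genes, Rora and clock output genes, with 95% counting intervals of 1 library each. Dotted lines mark 1.5-fold, and the open circle is Npas2, under 1 mean FPKM. Arntl, Npas2 and Nfil3 lie to the right beyond 1.5-fold, and the output genes Dbp, Tef, Hlf and Gm129 (Ciart) lie to the left with Per2, Per3, Cry2, Nr1d1 and Nr1d2.

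The order of levels differed between the libraries. In control lungs it ran Nr1d1, Nr1d2, Per1, Cry2, Per3, Per2, Clock, Cry1, Arntl and Npas2, and of these neighbours Per3 and Per2 alone had overlapping counting intervals. In knockout lungs it ran Nr1d1, Per1, Nr1d2, Cry2, Clock, Arntl, Per3, Per2, Cry1 and Npas2. There the neighbours Per1 and Nr1d2, Cry2 and Clock, Arntl and Per3, and Per2 and Cry1 had overlapping intervals. Arntl thus stood ninth by FPKM in control and sixth in knockout lungs.

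Ratios between members within a library do not depend on how that library was scaled. The FPKM of Arntl over that of Nr1d1 was 0.0282 in control and 0.120 in knockout lungs, 4.26 times as high. Arntl over Per2 was 0.228 and 1.61, so that Arntl was the less abundant of the pair in control lungs and the more abundant in knockout lungs. Arntl over Per3 was 0.207 and 1.19. In knockout lungs the counting intervals of Arntl and Per3 overlapped, so which of them was the more abundant there is not settled. Arntl over Per1 was 0.115 and 0.398, with the limit given above on the control level of Per1. Arntl over the output gene Dbp was 0.0615 and 0.481. The ratio of Nr1d1 to Nr1d2 was nearer to level, at 2.76 and 3.35.

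**Figure D3:**
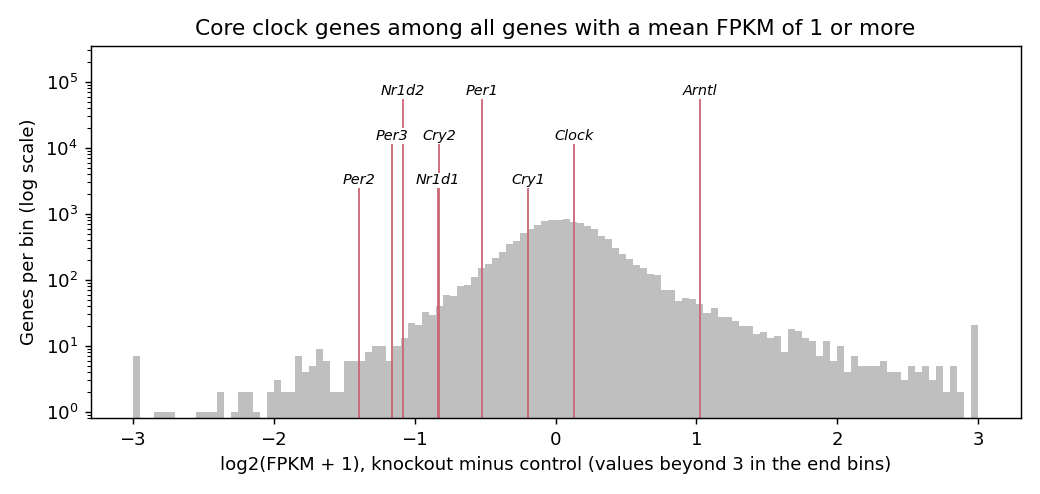
Histogram of log2(FPKM + 1) differences, knockout minus control, of the 12929 genes averaging at least 1 FPKM, on a log count axis, with the 9 core clock genes over that level marked by red lines. Per2, Per3, Nr1d2, Nr1d1 and Cry2 lie in the left tail, Clock near the centre and Arntl in the right tail.

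ROR genes encode activators that compete with REV-ERB proteins for RRE sequences. Rora was 2.23-fold lower in knockout lungs (1.41 to 3.63), at 2.68 and 1.20 FPKM. Rorb had 0.0235 FPKM in control lungs and was listed at 0 in knockout lungs.

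The clock output factors, 7 genes driven by the loop, were lower in 4 cases and higher in 1 at 1.5-fold, against 4.63% and 9.41% of all genes, with a median log2 difference of -1.04. DBP, TEF and HLF are activators of D-box genes. Dbp had 50.3 FPKM in control and 15.3 in knockout lungs, 3.30-fold lower (2.92 to 3.73). Tef (85.9 and 31.9 FPKM) and Hlf (6.69 and 2.74 FPKM) were lower as well. Ciart, listed as Gm129, encodes a repressor of BMAL1 and CLOCK and was 2.96-fold lower (2.33 to 3.81), close to Per2. Nfil3, a D-box repressor whose gene is itself repressed by REV-ERB proteins, went the other way at 1.79 and 4.27 FPKM, 2.38-fold higher (1.73 to 3.32), close to Arntl. Bhlhe40 (22.4 and 27.7 FPKM) and Bhlhe41 (7.67 and 6.23 FPKM), E-box repressors, were within 1.5-fold.

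Genes that modify clock proteins after translation lay within 1.5-fold, as most genes did. Of 17 kinase, ubiquitin ligase and related genes, 16 were over 1 FPKM and 0 of them passed 1.5-fold in either direction, with a median log2 difference of -0.02, while 11113 of all 12929 genes lay within 1.5-fold and the median of all genes was 0.05. They ranged from Prkaa2, an AMPK subunit gene that was 1.47-fold lower (1.27 to 1.69), to the casein kinase 2 gene Csnk2b, 1.19-fold higher (1.08 to 1.31). The most abundant were Skp1a (120 and 118 FPKM) and Ddb1 (77.8 and 90.9 FPKM), both of ubiquitin ligases. Of 13 co-regulators of clock transcription, 1 was higher at 1.5-fold (7.69%, near the 9.41% of all genes) and 0 were lower, with a median of -0.06. The higher gene was Timeless, known for DNA replication as well as the clock, at 4.01 and 7.47 FPKM. The deacetylase gene Sirt1 was the lowest, 1.47-fold lower (1.29 to 1.68), and the RNA-binding proteins Nono (58.2 and 75.4 FPKM) and Sfpq (42.8 and 54.3 FPKM) were the most abundant.

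Genes that cycle in many organs without belonging to the loop were mixed. Of 9, 2 were lower at 1.5-fold and 0 higher, against 4.63% and 9.41% of all genes, with a median of 0.08. Tsc22d3, which encodes the glucocorticoid-induced protein GILZ, was 2.01-fold lower (1.92 to 2.11), at 180 and 89.5 FPKM. Por, the cytochrome P450 reductase gene, was 1.55-fold lower (1.47 to 1.63). Tspan4 was the highest, at 36.5 and 42.8 FPKM.

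Glucocorticoids induce Per1 and can shift clocks in lung, and their target genes differed in both directions. Of 9, 3 were higher at 1.5-fold and 2 lower, against 9.41% and 4.63% of all genes, with a median of -0.36. The transcription factor gene Zbtb16 was 3.86-fold lower (3.51 to 4.25), at 29.7 and 7.69 FPKM, and the kinase gene Sgk1 was 4.37-fold higher (4.17 to 4.59), at 50.8 and 222 FPKM. The metallothionein gene Mt1 was 2.30-fold higher (2.07 to 2.56). The remaining genes past 1.5-fold on log2(FPKM + 1) were named after their values were seen. They were Mt2 (31.5 and 105.5 FPKM), a second metallothionein gene, and Klf9 (57.2 and 30.2 FPKM). Fkbp5, named in the same way, had 21.8 and 14.3 FPKM. It was 1.53-fold lower as a plain ratio (1.39 to 1.68) but fell short of the mark on log2(FPKM + 1). The part of hormone state in the clock gene values was not tested.

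**Figure D4:**
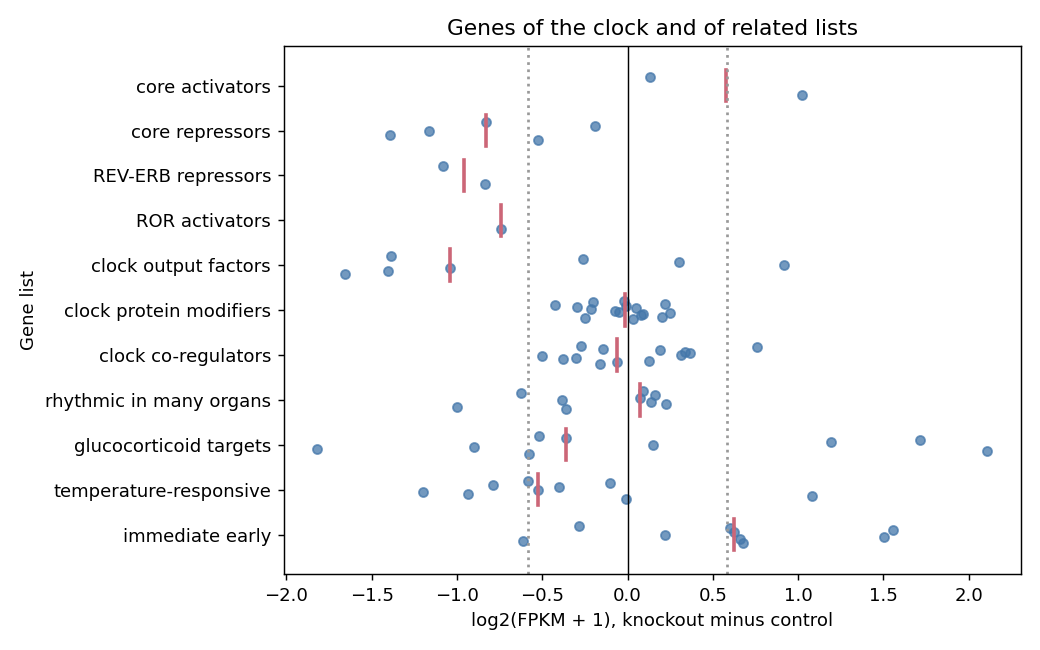
Difference in log2(FPKM + 1), knockout minus control, of each gene over 1 mean FPKM (points) in the clock lists and 6 related lists, with the median of each list in red and 1.5-fold marked by dotted lines. The medians are -0.83 for the core repressors and -1.04 for the output factors, and -0.02 and -0.06 for protein modifiers and co-regulators.

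Markers of lung cell types were counted at 1.5-fold in the same way, where 9.41% of all genes were higher and 4.63% lower, and those named here were picked after their values were seen. Markers of proliferating cells were higher at 1.5-fold in 12 of 12 cases, with a summed level of 75.8 FPKM in control and 352 in knockout lungs. Club cell markers were lower in 4 of 6 cases, Scgb1a1, Cyp2f2, Cbr2 and Aldh1a1 (40608 and 25476 FPKM summed), and ciliated cell markers in 2 of 6, Tppp3 and Sec14l3 (694 and 415 FPKM). Fibroblast markers were higher in 4 of 8 cases, Col1a1, Col1a2, Col3a1 and Mfap4, and lower in 1, Inmt (2004 and 2292 FPKM summed over the 8). That sum held Inmt at 1189 and 626 FPKM. Of the 8 markers, 5 had a log2 difference above 0 and 3 below. Smooth muscle markers were higher in 3 of 6, Acta2, Tagln and Actg2 (195 and 401 FPKM). Pan-endothelial markers were higher in 1 of 12, Emcn, a share (8.33%) near that of all genes. They were lower in 3, Erg, Ramp2 and Calcrl (1941 and 1713 FPKM summed over the 12). That sum held Ramp2 at 423 and 161 FPKM and Calcrl at 307 and 100 FPKM. Of the 12 markers, 6 had a log2 difference above 0 and 6 below. Alveolar macrophage markers were higher in 3 of 8, Marco, Ctsk and Fabp5, and lower in 3, Ear2, Siglec5 and Car4, a gene of capillary cells as well (541 and 574 FPKM). Neutrophil markers were higher in 2 of 5, S100a9 and Retnlg (57 and 84.9 FPKM). Alveolar type 1 markers were lower in 2 of 7, Rtkn2 and Clic5 (2497 and 2056 FPKM). Alveolar type 2 markers (20334 and 17603 FPKM summed over 8) and lymphocyte markers (43.4 and 51.1 FPKM over 8) held 0 genes past 1.5-fold. No marker found in the tables was at 0 in either pool. The part of these differences in the clock gene values was not tested, and in whole lung fewer cells of a type and less RNA per cell cannot be told apart.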

How the data were processed

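Whole-lung RNA was sequenced as 1 pooled library per genotype, grouped by the genotype label. The authors deposited FPKM values and coverage (mean depth per transcript base, per the file headers) for 28107 RefSeq transcript records. Per the submitters' processing notes, mm9 was the build and DESeq was among the tools, with no role stated. The aligner and quantification tool are not given here. FPKM was summed over records of a symbol. Differences are log2(FPKM + 1), which understates low genes, and single-gene folds are plain FPKM ratios. Coverage times length over genes with few reads peaked at 46.5 bases (control) and 46.7 bases (knockout), taken as 1 read, to give Clopper-Pearson ratio intervals and Poisson level intervals for counting error only. With 1 library per group no test was run. The members and lists were chosen with earlier results of these data known. The rule for named genes took all members, ROR, output and paralogue genes, and, from 12 lists and 11 marker lists, the highest, lowest and 2 most abundant genes. A gene that is withheld is not reported here. Marker lists are given as counts and sums with the names of genes past 1.5-fold. The alternatives were other pseudocounts, floors, folds, scalings and record choices. Promoter windows came from RefSeq and shared stretches from GENCODE M21. The scripts used Python 3.11.15, SciPy 1.17.1 and pandas 2.3.3, and were tested on simulated data.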

Additional observations from a re-analysis of the deposited data

How the results depend on the processing

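No paired analysis was possible because each genotype has 1 library. The log2 differences of the 10 clock genes kept their sign in all 89 values computed under other pseudocounts, floors, record choices and scalings. Much of this was fixed in advance. A floor leaves a gene's own difference unchanged, a pseudocount cannot turn its sign, and record choice bears only on Per1 and Cry2. The scalings were thus the main settings under which a sign could turn. Of the 89 values, 86 moved from the main value by less than the distance from centre to end of the gene's log2 counting interval. Many of these 86 could not move at all. The count of higher genes was 1 under each alternative run, the added plain FPKM ratio included. The count of lower genes was 5 except for 6 with the 100 most abundant genes left out of the totals and 3 at a fold of 2. The median of the clock genes was -0.68 without a floor, when Npas2 was counted, against -0.83. Keeping only records with status OK in both libraries removed Per1. The plain FPKM ratio as the fold scale was chosen after seeing the data. Depth limits Npas2 most, with about 25.4 reads in control lungs.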

Other observations

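Genes that respond to body temperature, a known cue for peripheral clocks, had a log2 difference below 0 in 8 cases and above 0 in 1. Among all 12929 genes, 5588 lay below 0. Of 9 such genes, 3 were lower past 1.5-fold and 1 was higher, against 4.63% and 9.41% of all genes, with a median log2 difference of -0.52 against 0.05 for all genes. Hspa1b, an inducible heat shock gene, had 23.2 FPKM in control and 9.52 in knockout lungs, though reads can be divided between it and its near-identical copy Hspa1a (15.8 and 7.80 FPKM). Hsph1 (38.5 and 21.8 FPKM), named after its values were seen, was the third of the lower genes. The abundant chaperone genes Hspa8 (887 and 616 FPKM) and Hsp90aa1 (228 and 172 FPKM) were within 1.5-fold. Rbm3, a cold-induced RNA-binding protein gene, was the highest, at 75.2 and 160 FPKM, 2.13-fold higher (2.0 to 2.26). Cirbp, also of this list and named after its values were seen, was near level at 22.4 and 22.2 FPKM. Because the list holds heat shock genes together with a cold-induced gene, its counts and median do not describe a single response. The part of body temperature in the clock gene values was not tested.

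Immediate early genes, which respond within minutes to stimuli, were higher at 1.5-fold in 6 of 9 cases and lower in 1, against 9.41% and 4.63% of all genes, with a median of 0.62. Nr4a1 was the highest, at 8.67 FPKM in control and 27.4 in knockout lungs, 3.16-fold higher (2.79 to 3.58). Jun was the lowest, 1.54-fold lower (1.46 to 1.62), and Btg2, the next most abundant, stood at 47.3 and 38.7 FPKM.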
